A study of Caenorhabditis elegans with 12 samples.

Results

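The Hedgehog-related and Patched-related genes of Caenorhabditis elegans were followed by RNA-seq in 12 libraries of the wild-type strain N2, each made from 1 pool of whole worms. For 44 h at 20 °C, 6 pools were on vitamin D and 6 on dimethyl sulfoxide (DMSO), the vehicle. The genes were chosen by name: every gene whose symbol is wrt, grd, grl, hog, ptr or ptc with a number, or qua-1, that had at least 1 read in any library. In all, 78 genes qualified, of 27928 entries in the count table and 19231 with any read. Another 7 genes with such names (grl-11, grl-15, grl-22, grl-25, ptr-9, ptr-19 and ptr-25) lie on chromosome III, where all 2800 entries of the table held 0 counts, and gave no measurement. The labels disagree on the dose of vitamin D (100 µM or 100 mM), on the worms per pool (50 or 40) and on when the worms were moved to the plates (as L4 larvae or at 1 day of age). Both groups carried the same genotype.

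Hedgehog is a secreted signal of animals that is cut by its own C-terminal part, the Hog domain, and acts by relieving Patched, a membrane protein with a sterol-sensing domain, of its block on Smoothened. Nematodes have no evident Smoothened and no typical Hedgehog. Instead, C. elegans has families of secreted proteins named warthog (wrt), groundhog (grd), ground-like (grl) and quahog (qua-1), some with a Hog domain, and a large family of Patched-related proteins (ptr) beside the Patched proteins ptc-1 and ptc-3. Many of these genes are active in the epidermis and in cells that line openings of the body, their transcripts rise and fall with the larval molts, and loss of several disturbs molting, the cuticle or the passage of membrane cargo.

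Libraries held 30203731 to 35230983 counts in the vehicle group and 31383203 to 38720736 in the vitamin D group. Values are CPM, counts scaled to a common library size with TMM factors (edgeR's correction for library composition), and levels compared between genes are CPM per kb of exon. Vehicle libraries 2 and 3 stood apart from the other vehicle libraries. The summed level of the sperm marker genes was 973.1 and 788.2 CPM in these 2 libraries, 4757 to 6689 CPM in the other 4 vehicle libraries and 1870 to 4210 CPM in the vitamin D libraries. The summed level of the molting genes went the other way, with 8228 and 8456 CPM in vehicle libraries 2 and 3, 1865 to 3634 CPM in the other vehicle libraries and 3861 to 7334 CPM on vitamin D. For many of the members described at length, tests on all 12 libraries are joined by tests without these libraries. Others have the median log2 deviation of the sperm genes as a covariate (the sperm score). No label sets vehicle libraries 2 and 3 apart, and they were picked by their expression in these data. Adjusted p-values of fits without them therefore only describe the remaining libraries. The sperm score was also taken from expression in these data, and its genes had a median log2 fold change of -0.72 on vitamin D. Estimates and adjusted p-values of fits with the score therefore hold only given that score.

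Of the 78 genes, 65 passed the filter on low counts (filterByExpr of edgeR, minimum count 10) and were tested. They were 9 of 10 wrt, 14 of 16 grd, 17 of 27 grl and 21 of 21 ptr genes, both ptc genes, hog-1 and qua-1. The 13 genes below the filter were wrt-7, grd-4, grd-8, grl-6, grl-9, grl-13, grl-19, grl-20, grl-26, grl-28, grl-29, grl-30 and grl-31. These had 10 to 111 counts over all 12 libraries together and at most 22 in any one, so that differences in them were not detectable at this depth with the filter in place.

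The most abundant members per kb were secreted proteins of the ground-like and groundhog families. grl-16 led with 708.8 ± 365.6 CPM per kb in vehicle and 498.3 ± 257.7 on vitamin D (SD, n = 6 and 6), followed by grd-5 with 653.9 ± 155.7 and 461.7 ± 126.4 CPM per kb. Next came grl-7 (436.1 ± 233.9 and 513.1 ± 153.7 CPM per kb), grl-5 (421.9 ± 134.9 and 476.0 ± 173.6) and grd-14 (402.3 ± 276.0 and 198.0 ± 96.5). Over all 12 libraries this is the order of the means. In the vehicle group each gene differed from the next by less than either SD, except grd-5 and grl-7, whose difference was under the SD of grl-7 only. Levels within the grl family ran from 0.0459 CPM per kb for grl-29 to 603.5 for grl-16 over all 12 libraries, and the median grl gene had 1.31 CPM per kb. The wrt genes had a median of 77.2 CPM per kb, with wrt-4, wrt-10 and wrt-1 highest at 276.0, 227.6 and 180.3. The receptor-like ptr genes spanned a narrower range, from 1.41 CPM per kb for ptr-22 to 94.5 for ptr-4, with a median of 22.9.

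**Figure D1:**
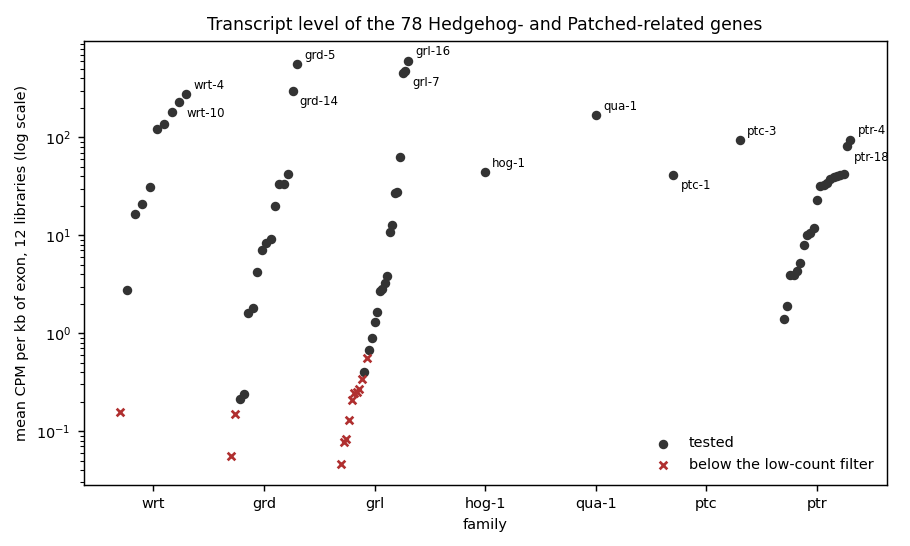
Mean level of each of the 78 genes over the 12 libraries in CPM per kb of exon (y axis, log scale) by family (x axis); dots are the 65 tested genes and red crosses the 13 below the low-count filter. The ptr genes lie between 1.41 and 94.5 CPM per kb, whereas grl genes run from 0.0459 to 603.5.

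Between vitamin D and vehicle, a single member of the 65 passed the threshold: ptr-22 (Y80D3A.7), a patched-related gene, rose 4.22-fold. No member fell. The share of members past the threshold was 1.54%, against 3.66% of all 13460 tested genes (quasi-likelihood test of edgeR, Benjamini-Hochberg adjusted p under 0.05 over all tested genes). Of all tested genes 1.75% were higher and 1.90% lower. At an unadjusted p under 0.05 there were 2 higher members (ptr-22 and ptr-5) and 4 lower ones (wrt-5, grd-5, grl-27 and ptr-3), 6 of 65. The unadjusted share over all tested genes was 16.7% (8.46% higher and 8.23% lower). The median log2 fold change (vitamin D over vehicle) was 0.11 over the members and -0.003 over all tested genes, and 38 of 65 members (58.5%) had a positive sign, against 49.5% of all genes.

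ptr-22 lies on chromosome V (18919221 to 18931379, minus strand, WBcel235) and is transcribed into 2772 bases of exon. Its level was 1.52, 1.49, 1.28, 1.37, 1.81 and 1.52 CPM in vehicle libraries 1 to 6 and 4.83, 5.26, 2.99, 7.25, 8.53 and 9.15 CPM in vitamin D libraries 1 to 6. Every vitamin D library lay above every vehicle library, by the smallest margin in vitamin D library 3. Such a separation of the groups was found in either direction for 3.90% of all tested genes, and for 1 of the 65 members. These levels rest on 42 to 57 counts per vehicle library and 117 to 346 per vitamin D library. The means were 1.499 ± 0.179 and 6.33 ± 2.37 CPM (SD, n = 6 and 6), a log2 fold change of 2.08 (SE 0.25, adjusted p = 0.000694 by edgeR). The vitamin D libraries spread more widely than the vehicle libraries, with a 3.06-fold range against 1.41-fold. Unlike most members, ptr-22 did not set vehicle libraries 2 and 3 apart, and without them its log2 fold change was 2.03 (SE 0.30, adjusted p = 0.00142 by edgeR). It passed in all 20 alternatives run, with adjusted p-values up to 0.00932. On vitamin D its level was 2.28 ± 0.856 CPM per kb, against 106.5 ± 23.02 CPM per kb for ptr-4. No other tested gene of the annotation overlaps it.

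Among the secreted ligand-like proteins, 0 of 42 tested members passed in either direction in edgeR, with 0 higher and 3 lower at an unadjusted p under 0.05 and a median log2 fold change of 0.06. DESeq2 called 0 members of these families higher and 3 lower: wrt-5, grl-27 and, below the main filter, grl-26. DESeq2 gave an adjusted p for 74 members, of which 1 was higher (ptr-22) and 3 lower, 5.41% in all. Over all genes DESeq2 called 7.72%, with 3.69% higher and 4.03% lower. In edgeR the smallest p-value of these families was that of wrt-5, a warthog gene needed for development of the epidermis (chromosome IV, 4050006 to 4051639). Its levels were 31.2, 25.2, 21.2, 32.4, 31.1 and 31.9 CPM in vehicle libraries 1 to 6 and 19.9, 23.2, 24.4, 25.5, 19.3 and 18.1 CPM in vitamin D libraries 1 to 6. Vehicle libraries 2 and 3 lay within the vitamin D range and the other 4 above it. The log2 fold change was -0.41 (SE 0.13, adjusted p = 0.104 by edgeR), from 28.9 ± 4.58 to 21.7 ± 3.05 CPM. It passed in 4 of 20 alternatives: without vehicle library 3 (-0.49, adjusted p = 0.034 by edgeR), without vehicle libraries 2 and 3 (-0.53, adjusted p = 0.00418 by edgeR), with the sperm score as a covariate (-0.34, adjusted p = 0.0358 by edgeR) and in DESeq2 (adjusted p = 0.0416).

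The ground-like gene grl-27 had the lowest log2 fold change of all members, -2.03 (SE 0.78, adjusted p = 0.193 by edgeR). It was at 2.82 and 1.19 CPM in vehicle libraries 2 and 3 and at 25.1 to 38.5 CPM in the other vehicle libraries, and vitamin D libraries held 0.928 to 9.94 CPM. All 6 vitamin D libraries were thus below 4 of the vehicle libraries, while the remaining vehicle libraries fell inside the vitamin D range. Without vehicle libraries 2 and 3 the log2 fold change was -2.57 (SE 0.49, adjusted p = 0.00531 by edgeR). DESeq2 on all 12 libraries gave an adjusted p of 0.0497. Once the sperm score was a covariate, the value was -0.75 (SE 0.52, adjusted p = 0.41 by edgeR). grl-26, on chromosome IV, held 2 to 11 counts per vehicle library and 0 to 4 per vitamin D library, too few for the filter, and its DESeq2 log2 fold change was -1.92 (SE 0.60, adjusted p = 0.0239). With no low-count filter in edgeR the adjusted p of grl-26 was 0.118.

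The groundhog gene grd-5 (chromosome V, 8619032 to 8619870) had means of 342.6 ± 81.6 CPM for vehicle and 241.9 ± 66.2 CPM for vitamin D. Its log2 fold change was -0.50 (SE 0.20, adjusted p = 0.227 by edgeR), and -0.68 (SE 0.20, adjusted p = 0.0271 by edgeR) without vehicle libraries 2 and 3. The groups overlapped: vehicle libraries ranged from 233.6 to 430.6 with a median of 350.1 CPM, and vitamin D libraries from 164.3 to 312.4 with a median of 244.5 CPM. hog-1, which is named for its Hog domain, ranged from 39.0 to 48.1 CPM in vehicle and from 24.3 to 49.7 CPM on vitamin D, where libraries 5 and 6 were lowest. Its log2 fold change was -0.18 (SE 0.17, adjusted p = 0.64 by edgeR). qua-1, the quahog gene required for molting, had 579.9 ± 458.0 CPM in vehicle and 720.2 ± 157 CPM on vitamin D (log2 fold change 0.31, adjusted p = 0.77 by edgeR, SE 0.45). Vehicle libraries 2 and 3 held 1187 and 1136 CPM of qua-1, above all vitamin D libraries (456.4 to 911.2 CPM), and the other vehicle libraries held 173.9 to 417.1 CPM, below all of them.

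**Figure D2:**
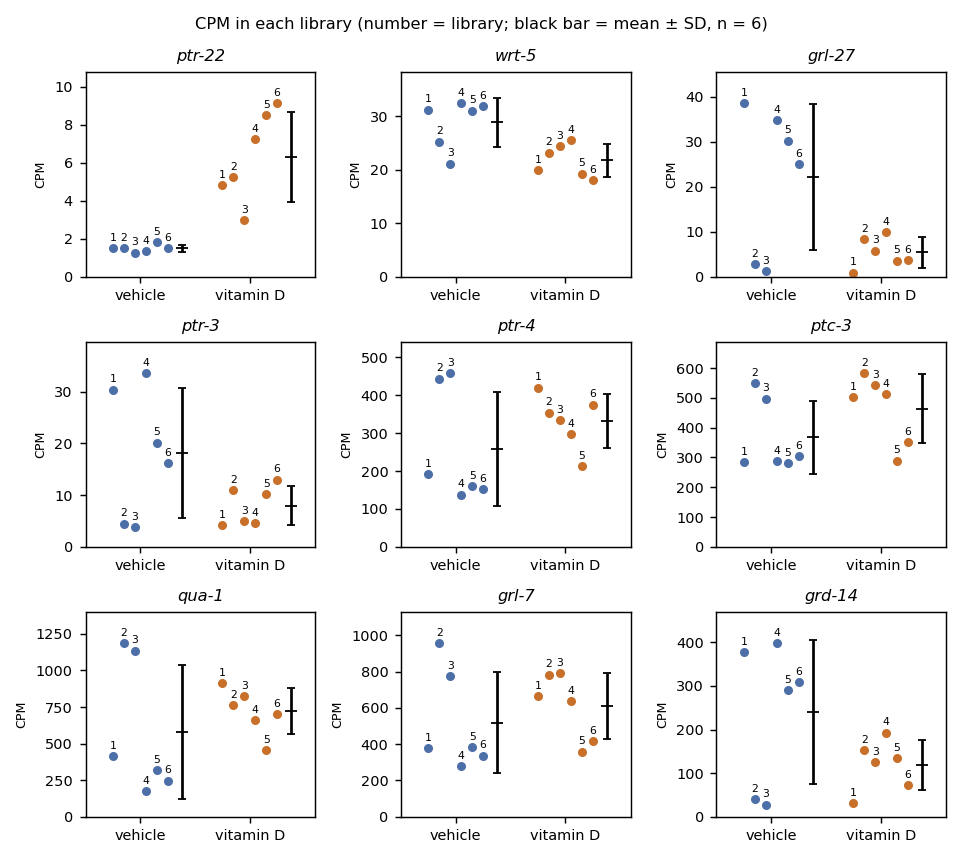
CPM (y axes, linear from 0) of 9 members in each library; blue points are vehicle and orange points vitamin D libraries with their numbers, and black bars are the mean ± SD (n = 6). ptr-22 separates the groups, whereas for qua-1, ptr-4, grl-27 and grd-14 vehicle libraries 2 and 3 lie on the other side of the vitamin D libraries from the remaining vehicle libraries or among the vitamin D libraries.

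Of the Patched proteins and their relatives, 1 of 23 tested members rose (ptr-22), 0 fell and 22 did not pass, with a median log2 fold change of 0.13. Over all tested genes 1.75% were higher and 1.90% lower. ptc-1, needed for the partition of germ cells, was among the steadiest members, at 183.4 to 223.9 CPM in vehicle and 194.3 to 288.2 CPM on vitamin D, where library 5 was highest. Its log2 fold change was 0.12 (SE 0.09, adjusted p = 0.587 by edgeR). The paralog ptc-3, which acts in the epidermis and in water balance, had 284.0, 550.0, 497.5, 288.2, 282.4 and 303.6 CPM in vehicle libraries 1 to 6. In vitamin D libraries 1 to 6 it had 504.1, 583.4, 543.6, 512.4, 289.8 and 352.4 CPM. Vehicle libraries 2 and 3 were thus as high as vitamin D libraries 1 to 4, and vitamin D library 5 was as low as the remaining vehicle libraries. The log2 fold change of ptc-3 was 0.34 (SE 0.23, adjusted p = 0.509 by edgeR), and 0.69 (SE 0.19, adjusted p = 0.0199 by edgeR) without vehicle libraries 2 and 3. The sperm score as a covariate gave 0.27 (SE 0.14, adjusted p = 0.248 by edgeR).

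ptr-4, which shapes the apical extracellular matrix, was the most abundant ptr gene, with 258 ± 151 CPM in vehicle and 332.4 ± 71.8 CPM on vitamin D. Vehicle libraries 2 and 3 held 443.8 and 458.5 CPM and the other vehicle libraries 137.6 to 192.9 CPM, with vitamin D libraries between them at 212.3 to 420.5 CPM. The log2 fold change was 0.37 (SE 0.33, adjusted p = 0.627 by edgeR) over all libraries and 1.05 (SE 0.18, adjusted p = 0.00271 by edgeR) without vehicle libraries 2 and 3. With the sperm score as a covariate it was 0.33 (adjusted p = 0.00766 by edgeR). ptr-3 went the other way, with 4.48 and 3.84 CPM in vehicle libraries 2 and 3, 16.1 to 33.6 CPM in the other vehicle libraries and 4.23 to 12.98 CPM on vitamin D. Its log2 fold change was -1.18 (SE 0.54, adjusted p = 0.298 by edgeR), and -1.64 (SE 0.37, adjusted p = 0.00939 by edgeR) without vehicle libraries 2 and 3. For ptr-3 the fit with the sperm score gave -0.49 (SE 0.35, adjusted p = 0.417 by edgeR).

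Smaller differences were found for ptr-5 and ptr-14. ptr-5 ranged from 9.33 to 14.5 CPM in vehicle and from 12.6 to 16.5 CPM on vitamin D (log2 fold change 0.28, SE 0.12, adjusted p = 0.271 by edgeR). ptr-14 had 103.5 ± 13.9 and 119.1 ± 16.5 CPM (log2 fold change 0.20, SE 0.11, adjusted p = 0.39 by edgeR). Without vehicle libraries 2 and 3 both passed, with log2 fold changes of 0.42 and 0.34, and with the sperm score neither did (0.25 and 0.16). ptr-24 and ptr-21 showed the smallest spread over all 12 libraries. ptr-24 lay between 105.8 and 138.0 CPM (log2 fold change -0.02, SE 0.08, adjusted p = 0.925 by edgeR) and ptr-21 between 124.2 and 153.3 CPM (-0.03, SE 0.06, adjusted p = 0.864 by edgeR). ptr-18, whose product takes up the GRL-7 protein, ranged from 194.8 to 262.5 CPM in vehicle and from 152.8 to 352.5 CPM on vitamin D. It was highest in vitamin D libraries 2 to 4 (322.4 to 352.5 CPM) and lowest in vitamin D libraries 5 and 6 (152.8 and 167.4 CPM).

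**Figure D3:**
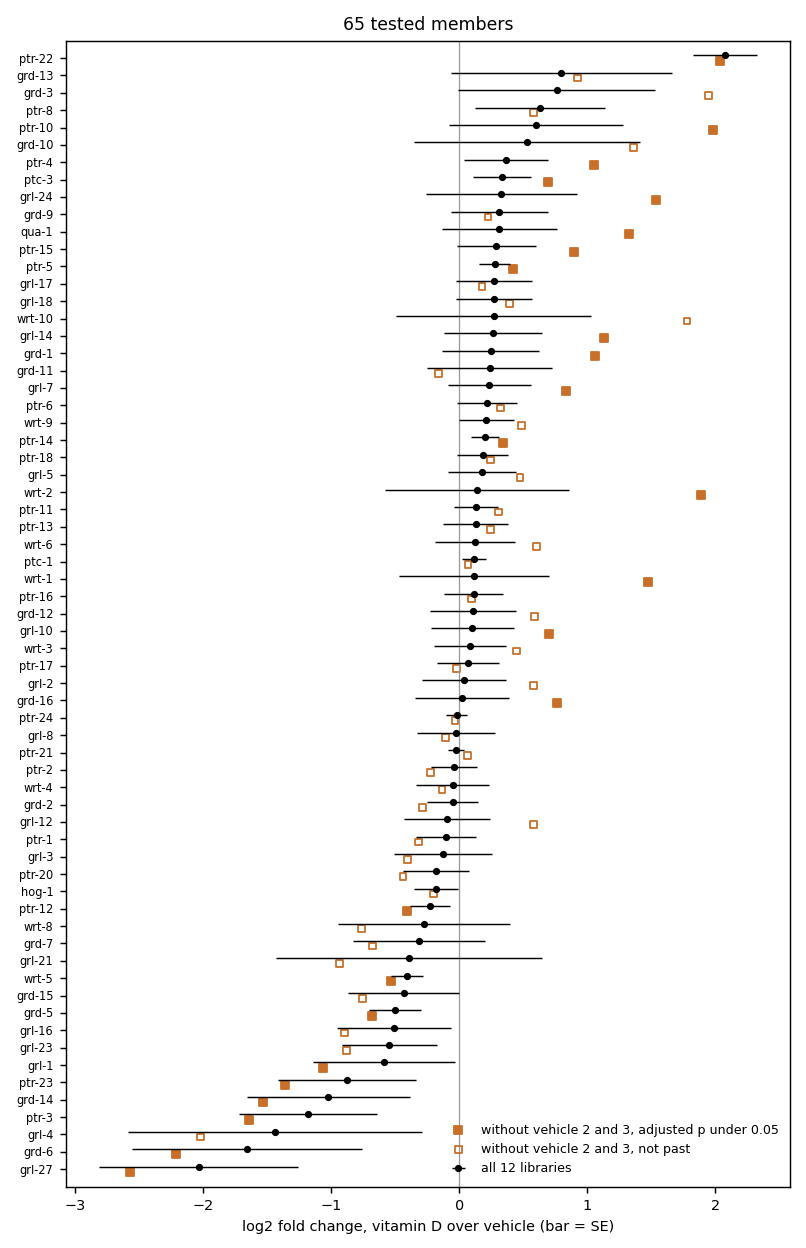
Log2 fold change of the 65 tested members, vitamin D over vehicle (x axis); black points with bars are the estimate ± SE over all 12 libraries, and orange squares the estimate without vehicle libraries 2 and 3, filled where the edgeR adjusted p was under 0.05. ptr-22 is at 2.08 over all libraries and at 2.03 without the pair, and 25 squares are filled.

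For many members, not only those given here, the spread among libraries of a group exceeded the difference between the group means. The widest range among tested members was that of grl-4, a ground-like gene, with 0.136 and 0.214 CPM in vehicle libraries 2 and 3 and 28.8 to 73.2 CPM in the other vehicle libraries, a 539-fold range within the group. On vitamin D it ran from 2.07 CPM in library 1 to 35.98 CPM in library 5. Its log2 fold change of -1.44 had an SE of 1.15 (adjusted p = 0.585 by edgeR), and without vehicle libraries 2 and 3 it was -2.02 (SE 0.76, adjusted p = 0.0771 by edgeR). Adding the sperm score turned its sign, to 0.90 (SE 0.78, adjusted p = 0.527 by edgeR). The groundhog gene grd-6 spanned 2.84 to 230.4 CPM in vehicle, with libraries 2 and 3 lowest, and 3.33 to 52.9 CPM on vitamin D, with library 1 lowest (log2 fold change -1.66, SE 0.90, adjusted p = 0.395 by edgeR). Without vehicle libraries 2 and 3 the log2 fold change of grd-6 was -2.21 (SE 0.56, adjusted p = 0.017 by edgeR), and with the sperm score it was 0.06 (SE 0.53, adjusted p = 0.962 by edgeR). grl-21, reported to act with ptr-24 in the control of fat stores, had 0.781 and 0.671 CPM in vehicle libraries 2 and 3, 5.12 to 16.1 CPM in the other vehicle libraries, and on vitamin D 28.7 CPM in library 5 against 0.600 to 3.09 CPM in the other libraries. Without vitamin D library 5 the log2 fold change of grl-21 moved from -0.39 to -2.24 (adjusted p = 0.169 by edgeR), and with the sperm score it was 0.35 (adjusted p = 0.824 by edgeR).

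Members fell into 3 patterns among the vehicle libraries. In 26 of 65 (40.0%), vehicle libraries 2 and 3 both lay above the other 4, in 22 (33.8%) both lay below, and in 17 neither held. Among all tested genes the shares were 33.6% above and 30.0% below, and the members' shares lie near this background. The group above held qua-1, 6 of 9 wrt, 4 of 14 grd, 7 of 17 grl and 7 of 21 ptr genes and ptc-3. The group below held ptc-1 and 2 wrt, 6 grd, 6 grl and 7 ptr genes. The SD of log2 CPM was larger among vehicle than among vitamin D libraries for 45 of 65 members (69.2%), against 64.3% of all tested genes.

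**Figure D4:**
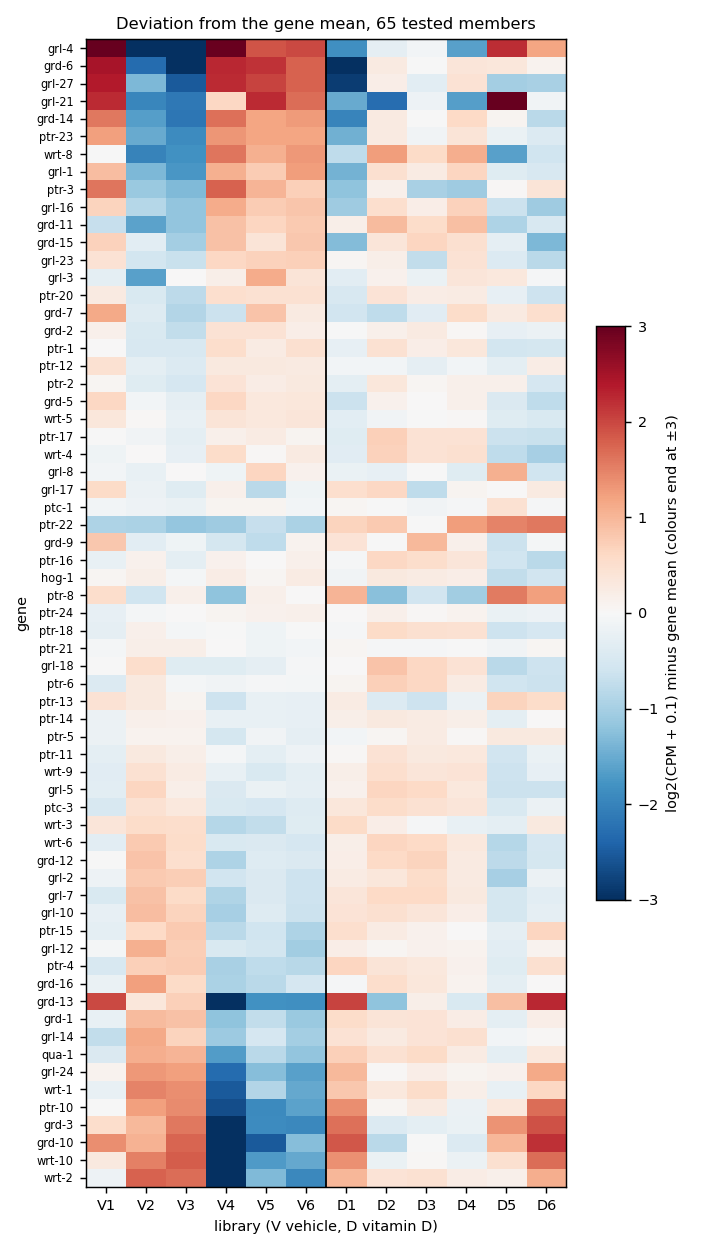
Deviation of each tested member from its own mean over 12 libraries, as log2(CPM + 0.1) (colour, ending at ±3), with genes in rows and vehicle (V1 to V6) and vitamin D (D1 to D6) libraries in columns. Rows are ordered by the difference between vehicle libraries 2 and 3 and the other vehicle libraries, so the blue-to-red order in V2 and V3 is set by the sorting; ptr-22 is the row with all vehicle libraries low.

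Among the members high in vehicle libraries 2 and 3, wrt-2 had 448.4 and 414.7 CPM there and 12.8 to 117.0 CPM in the other vehicle libraries, lowest in library 4. Vitamin D libraries held 144.6 to 278.9 CPM of wrt-2, between the other vehicle libraries and the pair. grl-7 was likewise at 957.0 and 773.9 CPM in the pair and at 277.9 to 385.0 CPM in the other vehicle libraries, with vitamin D libraries spread over 359.0 to 791.3 CPM. For grl-5 the pair held 592.0 and 423.9 CPM, the other vehicle libraries 277.8 to 325.9 CPM, and vitamin D libraries 240.3 to 592.7 CPM. ptr-10, whose promoter is used to mark glia, had 51.1 and 58.6 CPM in the pair, 3.37 to 21.7 CPM in the other vehicle libraries and 19.3 to 70.6 CPM on vitamin D, highest in libraries 1 and 6. Of the members low in the pair, ptr-23 held 31.9 and 24.95 CPM there, 208.1 to 228.9 CPM in the other vehicle libraries and 33.5 to 120.0 CPM on vitamin D. grl-16 had 482.4 and 379.0 CPM in the pair and 1386 to 1889 CPM in the other vehicle libraries. On vitamin D grl-16 had 998.8 to 1402 CPM in libraries 2 to 4 and 414.2 to 556.9 CPM in libraries 1, 5 and 6. wrt-4, the most abundant wrt gene, set the pair apart in neither direction, with 418.3 to 725.0 CPM in vehicle, but was again higher in vitamin D libraries 2 to 4 (666.3 to 798.7 CPM) than in libraries 1, 5 and 6 (246.6 to 386.8 CPM). Over all 12 libraries the log2 fold changes of wrt-2, ptr-10 and grl-7 were 0.14, 0.60 and 0.23 (adjusted p = 0.941, 0.707 and 0.762 by edgeR). Those of grl-5 and grl-16 were 0.17 and -0.51 (adjusted p = 0.785 and 0.618 by edgeR). Without the pair, the log2 fold change was 1.89 (SE 0.54, adjusted p = 0.0297 by edgeR) for wrt-2, 1.98 (SE 0.61, adjusted p = 0.0367 by edgeR) for ptr-10 and 0.83 (SE 0.24, adjusted p = 0.027 by edgeR) for grl-7. It was 0.48 (SE 0.27, adjusted p = 0.219 by edgeR) for grl-5 and -0.90 (SE 0.37, adjusted p = 0.0985 by edgeR) for grl-16. With the sperm score and all 12 libraries these values were 0.54 for wrt-2, 0.82 for ptr-10, 0.18 for grl-7, 0.10 for grl-5 and -0.04 for grl-16, none of them past the threshold in edgeR.

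With vehicle libraries 2 and 3 left out, 25 of 66 tested members passed, 16 higher and 9 lower with vitamin D (37.9%), against 28.6% of all 13723 genes tested in that fit (edgeR, adjusted p under 0.05). Since these libraries were picked by their expression, the counts are descriptive. The members' share of higher calls was 24.2% against 14.8% of all genes, and that of lower calls 13.6% against 13.8%. The members' median log2 fold change was then 0.23, against 0.02 over all genes. The 16 higher members were qua-1, wrt-1, wrt-2, grd-1, grd-16, grl-7, grl-10, grl-14, grl-24, ptc-3, ptr-4, ptr-5, ptr-10, ptr-14, ptr-15 and ptr-22. The 9 lower members were wrt-5, grd-5, grd-6, grd-14, grl-1, grl-27, ptr-3, ptr-12 and ptr-23. The log2 fold change of qua-1 became 1.33 (SE 0.26, adjusted p = 0.0058 by edgeR), that of grl-14 became 1.13 (SE 0.17, adjusted p = 0.00165 by edgeR) and that of ptr-23 became -1.36 (SE 0.28, adjusted p = 0.00741 by edgeR). Over all 12 libraries grl-14 was at 0.26 (SE 0.38, adjusted p = 0.773 by edgeR) and ptr-23 at -0.88 (SE 0.54, adjusted p = 0.463 by edgeR). With all libraries and the sperm score, ptr-23 was at -0.05 (SE 0.27, adjusted p = 0.94 by edgeR), qua-1 at 0.37 (SE 0.14, adjusted p = 0.124 by edgeR) and grl-14 at 0.30 (SE 0.15, adjusted p = 0.247 by edgeR). The span of grl-10 overlaps that of the ribosomal protein gene rpl-39 on the opposite strand. As the strand of the libraries is not known, reads from any exon sequence shared by both genes could not be told apart. Spans also overlap on opposite strands for grl-1 with hir-1, grl-14 with sbt-1, grl-24 with gba-3, wrt-2 with pccb-1, ptr-10 with F55F8.8 and ptr-15 with mec-1. Whether exons overlap in these pairs was not examined. In vehicle grl-1 had a mean of 1.90 CPM beside 42.9 CPM for hir-1, and grl-24 had 5.57 CPM beside 26.2 CPM for gba-3. The means of rpl-39 were 686.7 CPM in vehicle and 274.6 CPM on vitamin D, beside 58.7 and 63.0 CPM for grl-10. Over all 12 libraries rpl-39 was lower on vitamin D (log2 fold change -1.32, adjusted p = 0.0299 by edgeR). With the sperm score as a covariate in place of leaving libraries out, ptr-22 and ptr-4 were higher and wrt-5 lower, 4.62% of the members against 11.8% of all genes (6.05% higher and 5.75% lower).

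Genes of the families lie next to each other at several places. wrt-1 (chromosome II, 7530996 to 7533246) and wrt-10 (7533262 to 7534563) face each other on opposite strands 15 bp apart. wrt-1 held 690.1 and 649.6 CPM in vehicle libraries 2 and 3 and wrt-10 477.4 and 591.0 CPM, and both were lowest in vehicle library 4, at 43.0 and 14.005 CPM. On vitamin D wrt-1 ran from 212.8 to 432.4 CPM and wrt-10 from 147.6 to 538.8 CPM. Their log2 fold changes were 0.12 (SE 0.58) and 0.27 (SE 0.76). Without vehicle libraries 2 and 3 they were 1.47 (SE 0.41, adjusted p = 0.024 by edgeR) and 1.78 (SE 0.73, adjusted p = 0.0989 by edgeR). Given the sperm score as a covariate, they were 0.31 and 0.59 (adjusted p = 0.527 and 0.556 by edgeR). Because the ends lie so close and the strand of the libraries is not known, some reads near the shared end may be counted for the wrong gene.

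The groundhog genes grd-13, grd-3 and grd-10 follow one another on the plus strand of chromosome IV between 3438312 and 3441841, with gaps of 147 and 601 bp. All 3 were lowest in vehicle library 4, at 0.250, 1.43 and 0.281 CPM. Vehicle library 1, which resembled libraries 4 to 6 in the sperm markers, held 11.8, 21.3 and 18.7 CPM of these genes and so resembled libraries 2 and 3 (3.73 and 4.88, 29.0 and 44.3, 14.5 and 23.8 CPM). On vitamin D, libraries 1, 5 and 6 held 37.7 to 55.8 CPM of grd-3 and libraries 2 to 4 held 11.01 to 12.7 CPM. grd-10 was split in the same way, with 13.98 to 32.5 CPM against 3.93 to 6.97 CPM, as was grd-13, with 5.502 to 14.3 CPM against 1.20 to 3.32 CPM. None of these passed the threshold, with log2 fold changes of 0.80, 0.76 and 0.53 and SEs of 0.86, 0.77 and 0.88 (adjusted p from 0.674 to 0.806 by edgeR). Without vehicle libraries 2 and 3 the values were 0.92, 1.95 and 1.36 (adjusted p = 0.564, 0.112 and 0.367 by edgeR). With the sperm score they were 0.70, 1.02 and 0.59 (adjusted p = 0.706, 0.378 and 0.721 by edgeR).

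Other neighbours differed in level. grd-14 and grd-4 lie 184 bp apart on the X chromosome (8500021 to 8501037 and 8501222 to 8502288, both plus strand). grd-14 held 28.0 to 398.4 CPM in vehicle, lowest in libraries 2 and 3, with a log2 fold change of -1.02 (SE 0.64, adjusted p = 0.47 by edgeR) that became -1.53 (SE 0.40, adjusted p = 0.0206 by edgeR) without them. The fit with the sperm score gave -0.06 (SE 0.35, adjusted p = 0.948 by edgeR). In contrast, grd-4 was at 0 to 0.223 CPM in all 12 libraries. wrt-8 held 5.36 and 6.10 CPM in vehicle libraries 2 and 3 and 21.6 to 67.2 CPM in the other vehicle libraries, while its neighbour wrt-7, 4548 bp away on chromosome V, was at 0.0317 to 0.475 CPM over all libraries and highest in vehicle libraries 2 and 3 and vitamin D library 3. On vitamin D wrt-8 held 6.99 to 52.0 CPM, with a log2 fold change of -0.28 (SE 0.67, adjusted p = 0.872 by edgeR). For wrt-8 the value was -0.76 without vehicle libraries 2 and 3 (adjusted p = 0.343 by edgeR). With the sperm score it was 0.67 (adjusted p = 0.527 by edgeR). A cluster of grl-28, grl-29, grl-30 and grl-31 on chromosome V (3551346 to 3557778) held 0 to 22 counts per gene and library. How reads shared between these similar genes were counted is not known. Of the 78 members, 32 lie on chromosome V, 13 each on IV and X, 11 on II and 9 on I.

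**Figure D5:**
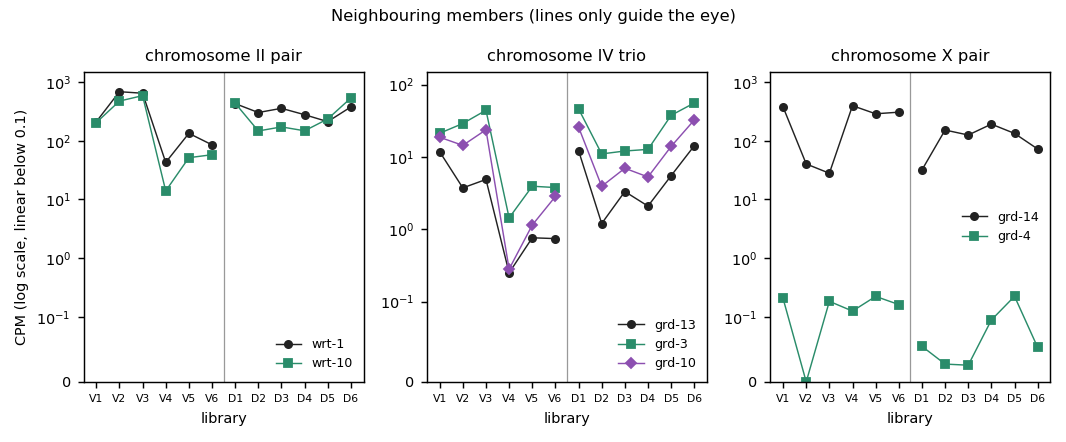
CPM (y axes, log scale, linear below 0.1) in vehicle (V1 to V6) and vitamin D (D1 to D6) libraries for neighbouring members on chromosomes II, IV and X; libraries have no order and the lines only join one gene's points. wrt-1 and wrt-10 dip together in V4, the grd genes of chromosome IV dip in V4 to V6, and grd-4 stays at 0 to 0.223 CPM beside grd-14.

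Genes that work beside these families in animals or in C. elegans were listed separately. Of 24 such genes 18 were tested, and 0 rose and 0 fell, with a median log2 fold change of 0.10 and 15 of 18 signs positive. tra-1, which encodes the worm's Gli-type transcription factor, was listed at 0, as were ncr-2, rib-2, hse-5, hhat-1 and kin-19. Apart from hhat-1, these lie on chromosome III, where every entry is 0, so their 0 is no measurement. che-14, a relative of Dispatched that acts in apical secretion, had 49.3 ± 13.98 and 58.7 ± 9.92 CPM (log2 fold change 0.25, SE 0.18, adjusted p = 0.533 by edgeR). daf-6, a further Patched relative that shapes glial channels, had 33.0 ± 9.14 and 38.1 ± 7.41 CPM (0.20, SE 0.19, adjusted p = 0.642 by edgeR). ptd-2, named for its likeness to Patched and Dispatched, stayed at 1.501 to 3.81 CPM in all 12 libraries.

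The megalin-type receptor gene lrp-1, which takes up sterol cargo and is needed for molting, had 435 ± 145 and 550.4 ± 113.2 CPM (log2 fold change 0.34, SE 0.21, adjusted p = 0.471 by edgeR). ncr-1, of intracellular cholesterol transport, had 45.4 ± 6.21 and 48.5 ± 4.81 CPM (0.10, SE 0.10, adjusted p = 0.676 by edgeR). tra-2, a membrane protein of sex determination with likeness to Patched, ranged from 43.1 to 64.3 CPM in vehicle, highest in libraries 2 and 3, and from 55.2 to 66.5 CPM on vitamin D (0.23, SE 0.11, adjusted p = 0.348 by edgeR). Without vehicle libraries 2 and 3, 8 of 18 partners were higher and 0 lower (che-14, daf-6, gpn-1, hhat-2, hst-2, lrp-1, sdn-1 and tra-2), in a fit that called 14.8% of all genes higher and 13.8% lower. With the sperm score, tra-2 passed (0.19, SE 0.05, adjusted p = 0.0202 by edgeR) and the other 17 did not.

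Marker lists of tissues and stages were followed beside the members. The counts without vehicle libraries 2 and 3 are to be read against the 14.8% of all genes called higher and the 13.8% called lower in that fit. The fit with the sperm score called 6.05% of all genes higher and 5.75% lower. Marker genes given as at 0 lie on chromosome III and have no measurement, except bli-1, bli-2, dpy-4 and ceh-51. Of 19 tested molting genes 0 rose and 0 fell, with a median log2 fold change of 0.32, and without vehicle libraries 2 and 3 there were 10 higher and 1 lower. With the sperm score as a covariate 0 molting genes were higher and 0 lower. Regulators of molting and of the epidermis had 0 of 13 past the threshold, all 13 with a positive sign and a median of 0.21. Without vehicle libraries 2 and 3, 7 regulators were higher and 0 lower. The fit with the sperm score called 2 of them higher (lin-42 and myrf-1) and 0 lower. Epidermal markers summed to 8391 to 12630 CPM in vehicle and 6439 to 11340 CPM on vitamin D, lowest in vitamin D libraries 5 and 6 (6439 and 6811 CPM), with 0 of 10 past the threshold and with bli-1, bli-2 and dpy-4 listed at 0. Glial markers summed to 37.8 to 70.6 CPM in vehicle, highest in libraries 2 and 3, and to 46.4 to 59.0 CPM on vitamin D, with 0 of 5 past the threshold and ver-1 and pros-1 at 0. Markers of the vulva and excretory duct summed to 35.1 to 68.3 CPM in vehicle and 42.8 to 65.4 CPM on vitamin D, with 0 of 6 past the threshold and lin-48 at 0.

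Sperm markers had 0 of 45 past the threshold (median -0.72) and oocyte markers 0 of 8 (median -0.26). Without vehicle libraries 2 and 3, in the fit that called 25 members, 38 sperm markers were lower and 1 higher (median -1.22), and no oocyte marker passed. In that fit 4 neuronal, 3 vulval or duct, 2 pharyngeal, 2 muscle, 2 epidermal and 1 glial marker were higher, and 1 epidermal, 1 embryo and 1 intestinal marker were lower. With the sperm score, 4 neuronal, 1 glial and 1 muscle marker were higher and 2 muscle markers lower. No epidermal, vulval or duct, oocyte, embryo, intestinal or pharyngeal marker passed with the sperm score. The sperm markers, which make up the score, are left aside there. The oocyte list summed to 342.6 to 1151 CPM in vehicle, lowest in libraries 2 and 3, and to 383 to 1678 CPM on vitamin D, highest in library 5, with cpg-1, cpg-2, egg-1 and egg-2 at 0. Embryo markers summed to 37.2 to 56.6 CPM in vehicle and 40.4 to 47.0 CPM on vitamin D, with 0 of 5 past the threshold and tbx-8, tbx-9, tbx-37, tbx-38, ceh-51 and pal-1 at 0. Intestinal markers summed to 668.1 to 1696 CPM in vehicle, lowest in libraries 2 and 3. On vitamin D they summed to 3295 CPM in library 5, against 645 to 748.8 CPM in the other libraries. Most of the intestinal markers did not follow these sums. Their median log2 deviation was -0.18 in vitamin D library 5, the lowest of all 12 libraries, and 0.04 and 0.17 in vehicle libraries 2 and 3. Intestinal and neuronal markers had 0 of 5 and 0 of 7 past the threshold, pharyngeal markers 0 of 4, and muscle markers 1 of 6 (unc-54, higher). The part of these tissues in the members' values was not tested, beyond the fit with the sperm score as a covariate. In whole worms, fewer cells of a type and less RNA per cell cannot be told apart.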

How the data were processed

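RNA from whole worms was sequenced in 12 libraries, with an average insert of 200 bp and reads of 50 bp as pairs, per the labels' protocols. The submitters' processing notes name edgeR 3.12.1; no aligner, counter, strand or build is given there or in the labels. The authors deposited raw counts per gene and a table of CPM, each deposited CPM being the count over the library total to within 2.91e-11; only the counts were tested. Sequence names (27187 of 27928 with 1 match) were looked up in the WBcel235 gene annotation for symbols, positions and exon lengths. The members and lists were chosen with earlier results of these data known. Counts were tested with edgeR 4.0.16 in R 4.3.3 (TMM, filterByExpr with minimum count 10 and minimum total 15, robust glmQLFit and glmQLFTest, treatment as the only term), and with DESeq2 1.42.0 as an alternative. SEs come from the log2 fold change and the F statistic. The sperm score is the median log2 deviation of 45 sperm genes per library. No libraries of a group were copies (lowest chi-square per degree of freedom 7.35). The series text counts each pool as 1 biological sample, so p-values measure the spread between pools. Named members were those past the threshold, the 3 most abundant of each family, the 5 smallest p-values per direction and the 5 with the largest SD; others are named for neighbours, patterns or alternatives, after their values were seen. Alternatives were other size factors, no filter, a replicate block, leaving out libraries, the sperm score and an exon length trend. No sequence is shown.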

Additional observations from a re-analysis of the deposited data

Results flagged for a closer look

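In 3 of the 50 groups of 6 libraries checked (25 named members, vehicle and vitamin D separately), 1 library lay far from the other 5 by Dixon's ratio, whose limit for 6 values is 0.625. Chance alone flags about 1 in 20 groups. grd-6 had 3.33 CPM in vitamin D library 1, where the other vitamin D libraries had 40.9 to 52.9 CPM (ratio 0.759). ptc-1 had 288 CPM in vitamin D library 5, above 194.3 to 218.1 CPM in the others (ratio 0.746). grl-21 had 28.7 CPM in vitamin D library 5, above 0.600 to 3.09 CPM in the others (ratio 0.911).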

How the results depend on the processing

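ptr-22 passed in all 20 alternatives. Members higher were 1 and lower 0 in edgeR with either size factor alternative, without a filter, with the replicate block and with the length trend removed. They became 16 and 9 without vehicle libraries 2 and 3 and 2 and 1 with the sperm score as a covariate; DESeq2 gave 1 and 3. Leaving out single libraries gave 1 higher throughout and 0 to 1 lower (1 without vehicle library 3). The members' median log2 fold change of 0.109 ran from 0.017 to 0.234 over the alternatives, always above 0. The 492 genes past the threshold overall became 1136 in DESeq2, 3924 without vehicle libraries 2 and 3, 1589 with the sperm score and 250 with the length trend removed, and 260 to 625 with single libraries left out: vehicle library 1 gave 260 and vehicle library 4 gave 302 when left out, and vitamin D libraries 1, 2, 3, 4 and 6 gave 264, 299, 324, 291 and 297. With the replicate block 136 remained in number; libraries with the same number did not pair (correlations of deviations -0.418 to 0.441, and 1 of 6 closest to its own number). The causes were not tested.

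Of 500 values of single named members, 18 changed sign, none of them past the threshold, and 18 newly passed, 13 of these without vehicle libraries 2 and 3. With the sperm score, grd-6 became 0.0625, grl-4 0.899 and grl-21 0.3498; with the length trend removed ptc-1 became -0.0309. With total counts ptr-24 became 0.0349 and wrt-4 0.0005. With single libraries left out, values ran from -0.0718 to 0.0191 for ptr-24, from -0.2245 to 0.0936 for wrt-4, from -0.1174 to 0.5306 for wrt-1 and from -0.0244 to 0.7904 for wrt-10. Depth limits the 13 members below the filter and ptr-22, whose vehicle libraries hold 42 to 57 counts.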
